A study of Mus musculus with 6 samples.

Results

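The genes for 10 proteins of the Z-disc, Actn2, Actn3, Myoz1, Myoz2, Myoz3, Ldb3, Tcap, Csrp3, Myot and Des, were followed among 22921 genes in chromatin immunoprecipitation sequencing (ChIP-seq) of mouse fetal myotubes. They were taken as a list of names and placed on NCBI Build 37 (mm9), and all 10 were found in the annotation. The chromatin came from wild type C57BL/6 primary myoblasts of E18.5 limb muscle at passage 17, which had been kept in differentiation medium for 48 h. The libraries fell into 3 groups of 2: Sox6 (chromatin bound by an antibody to this SRY-box transcription factor), RNA polymerase II (Pol II, with an antibody described by the study as binding a phosphorylated form), and input, the DNA of the chromatin without immunoprecipitation. All libraries were of the same wild type cells, so the comparisons were of each immunoprecipitation with input, and no group lacked Sox6. The 2 immunoprecipitations with each antibody were separate experiments, but it is not given in the sources used here whether they came from separate cultures or fetuses. The limma p-values therefore measure no more than the spread between these libraries. In the limma comparisons with input this spread is drawn toward that of other windows with like read numbers. At starts and common peaks it came almost wholly from those other windows. A small p-value, above all at starts and common peaks, thus does not show how well the replicates agreed at a single site.

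The Z-disc is the border of the sarcomere, at which the thin filaments of neighbouring sarcomeres are tied together by α-actinin dimers. Titin is anchored there with the help of telethonin, and myozenins, Ldb3 (ZASP or Cypher) and myotilin bind α-actinin and hold signalling proteins and other parts of the lattice in place. Desmin filaments run around the Z-disc and link neighbouring myofibrils to each other and to the membrane. Sox6 is known in fetal muscle as a repressor of slow fiber genes, which raises the question of whether it bound near any of these genes and how much Pol II they carried.

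The Sox6 libraries had 2985437 reads in replicate 1 and 1468604 in replicate 2, the Pol II libraries had 1538757 and 2762155, and the input libraries 21973495 and 24249850. Input was therefore measured far more precisely than either immunoprecipitation. Over gene bodies, 8 of 8 myotube markers had more Pol II than input and 0 of 7 fibroblast markers did, and 5 of the 7 had less. Of 5 cardiac markers, only Nppa, which encodes a natriuretic peptide, had more Pol II (5 and 11 reads), and Tbx5 had less. Of 5 markers of progenitors or dividing cells, the muscle progenitor genes Pax7 and Myf5 had more, and the cell division genes Mki67 and Top2a had less (-1.05 and -1.03 on the log2 scale). Of 3 neuronal markers 1 had more and 2 had less, and of 4 blood or liver markers the 3 tested had less. With libraries scaled to reads in 10 kb bins without genes or peaks, 8 myotube markers were called higher, 2 fibroblast markers (Col1a1, 1.44 on the log2 scale, and Thy1, 2.03) were higher and 0 lower, and 2 cardiac, 3 progenitor or dividing cell and 1 neuronal marker were higher. Of all these markers 1, of blood or liver, was then called lower, and Mki67, Top2a and Tbx5 were at 0.25, 0.28 and 0.22 and were not called.

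Pol II was measured over each gene body in RPKM, reads scaled to the length of the gene in kilobases and to the size of the library, so that genes of unlike length could be compared. It was higher than input over 9 of the 10 genes, with Myoz3 the exception. In the same limma comparison of 20871 genes 38.8% were called higher and 24.3% lower, at a Benjamini-Hochberg adjusted p below 0.05. The level fell into a wide order, from 20.4 ± 0.827 RPKM (SD, n = 2) for Des to 0.313 ± 0.0865 for Myoz3. Des carried 65.6% of the level of Actb, the β-actin gene, and Myoz3 1.01%. The only neighbours in this order whose replicates overlapped were Csrp3 and Myoz2. The 10 genes had a median log2 ratio of 2.66, and over all genes tested it was 0.17.

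These ratios depend on how the libraries are scaled, and scaling to reads in 10 kb bins without genes or peaks added 1.31 to the log2 ratio of the median gene, whereas the median of ratios took off 0.32. The calls over all gene bodies then changed from 8098 higher and 5072 lower to 13141 and 431 with the bins, and to 6701 and 6675 with the median of ratios. Relative to the median gene, 9 of the 10 Z-disc genes lay above it and Myoz3 below.

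**Figure D1:**
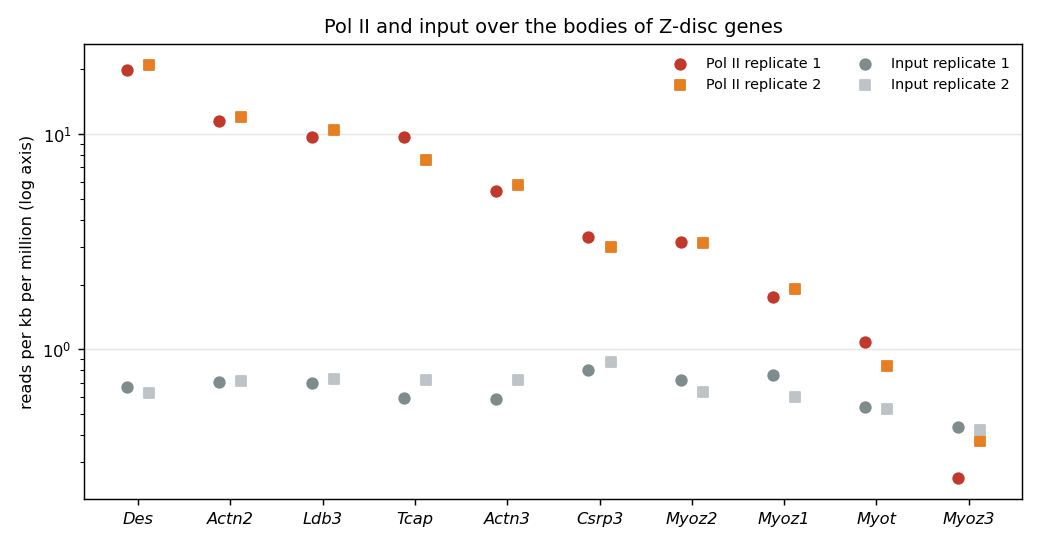
Pol II and input over the bodies of the 10 Z-disc genes, in RPKM on a log axis, with 1 point per library and genes in order of mean Pol II. Both Pol II libraries lie above both inputs for every gene except Myoz3, where both lie below.

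The α-actinins are the cross-linkers of the thin filaments. Actn2 (chr13:12361693-12433027, minus strand, 71335 bp) encodes the isoform found in all sarcomeres, and Actn3 (chr19:4861223-4877909, minus strand, 16687 bp) that of fast fibers. Over Actn2, Pol II was at 11.5 and 12 RPKM (1261 and 2360 reads), and input at 0.704 and 0.715 RPKM. The Pol II libraries did not overlap with input and were 16.3 and 16.8 times higher, for a log2 ratio of 4.05 ± 0.07 (SE, adjusted p = 1.43e-09). Actn3 had 5.41 and 5.81 RPKM of Pol II against 0.589 and 0.719 RPKM of input, a log2 ratio of 3.11 ± 0.14 (adjusted p = 1.18e-07). Both Pol II values of Actn2 were above both of Actn3, and the 2 genes ranked at 99.3% and 97.5% of 22455 genes by level.

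Pol II was spread along the whole of Actn2. With the gene cut into 4 equal parts from 5′ to 3′, the first replicate had 13, 10.9, 11.3 and 10.7 RPKM and the second 14, 11.8, 11.6 and 10.5. Input was at 0.86 and 0.879 RPKM in the first part and at 0.536 and 0.511 in the last. Pol II was thus 15.1 and 15.9 times input in the first part and 20.1 and 20.6 times in the last. The highest Pol II lay just inside the gene, with 21.5 and 24 RPKM in the bin of 1750 bp centred 1375 bp after the start and 22.3 and 23 RPKM in the next. Around the annotated start itself, within 500 bp on each side, there were only 14 and 19 reads, or 0.792 and 0.574 times the density of the body. Past the annotated end Pol II was still at 11.7 and 9.77 RPKM over 2 kb. The peak lists deposited for the Pol II replicates held 11299 and 17488 peaks in all, with 50 and 34 inside Actn2 and 5 and 10 inside Actn3. The lists held none in Myoz1 or Myot, which were called higher than input, nor in Myoz3, and 1 to 4 per replicate in Myoz2, Tcap, Csrp3 and Des. These counts were not scaled to gene length, and the share of all genes with a Pol II peak was not counted. At its start Actn3 had 6 and 28 Pol II reads, so the replicates differed more there than over its body. Its start window overlaps that of Zdhhc24, which begins 759 bp away and is read in the other direction, so reads between the starts cannot be told apart, and Ctsf lies 311 bp past its end.

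**Figure D2:**
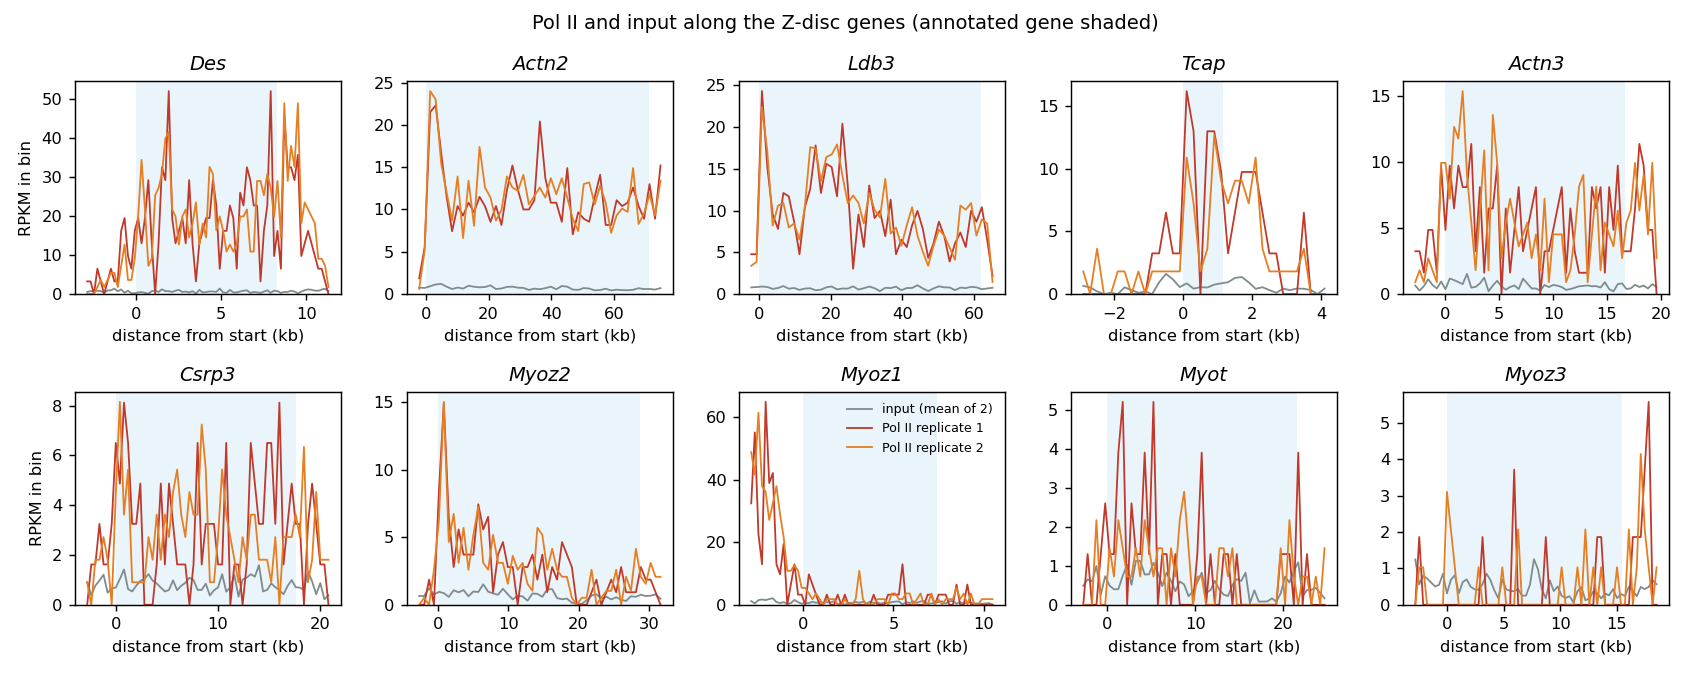
Pol II of each replicate and the mean of the inputs along the 10 genes, in RPKM per bin against the distance from the annotated start in kb, read in the direction of the gene. Each panel has its own vertical scale, and the annotated gene is shaded. Actn2 and Des carry Pol II over their whole length and past the end, Myoz2 and Ldb3 have more in their 5′ part than in the rest of the gene, and at Myoz1 the high Pol II lies before the start. Pol II also lies over the 2 kb past the ends of Actn3, Ldb3 and Tcap, and in Actn3 it is highest in the first of 4 equal parts.

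Desmin, Ldb3 and telethonin made up the rest of the high end. Des (chr1:75356904-75365154, plus strand, 8251 bp) encodes the muscle intermediate filament protein. It had 19.8 and 21 RPKM of Pol II over its body (252 and 479 reads) and 0.667 and 0.625 RPKM of input, with no overlap. The log2 ratio was 4.98 ± 0.12 (adjusted p = 5.16e-09), and by its mean Pol II level Des ranked 56 of 22455 genes. Pol II was at 22.1, 15.1, 19.2 and 23 RPKM in 4 equal parts of Des from 5′ to 3′ in replicate 1 and at 25.5, 17.9, 18.3 and 22.5 in replicate 2, and it was higher still over the 2 kb past the end, at 24 and 30.4 RPKM. A noncoding transcript on the other strand, Gm15179, overlaps the end of Des, and the reads do not tell the 2 apart.

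The promoter of Des is shown because Des had the most Pol II of these genes. It is read from 250 bases before to 50 after the start in the direction of the gene, with the E-box (CAGCTG or CAGGTG on either strand, the site of MyoD and related factors) in capitals.
Des promoter, chr1:75356654-75356953, plus strand: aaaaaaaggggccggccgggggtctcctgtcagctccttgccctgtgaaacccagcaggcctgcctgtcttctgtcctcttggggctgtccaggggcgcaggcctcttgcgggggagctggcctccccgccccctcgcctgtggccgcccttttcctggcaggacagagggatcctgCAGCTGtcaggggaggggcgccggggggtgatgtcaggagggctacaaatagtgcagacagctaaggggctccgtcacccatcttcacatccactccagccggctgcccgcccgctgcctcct
The match began at position -73 from the start. An E-box of this kind was found in 4 of the 10 promoters (Myoz2, Myoz3, Myot and Des) and in 32% of 22921 promoters of the same length. The matches are letters in a window, not sites shown to be bound.

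Ldb3 (chr14:35339885-35401867, minus strand, 61983 bp) encodes a PDZ and LIM protein that binds α-actinin. Its Pol II was at 9.74 and 10.4 RPKM over the body against 0.699 and 0.727 RPKM of input, a log2 ratio of 3.82 ± 0.08 (adjusted p = 2.56e-09). Pol II over Ldb3 was lower toward the 3′ end, from 11.8, 12.3 and 8.22 to 6.67 RPKM in such parts in replicate 1 and from 12.1, 13.6 and 8.67 to 7.10 in replicate 2, while input stayed between 0.649 and 0.790 RPKM. Over the 2 kb past the annotated end Pol II was at 10.4 and 10.1 RPKM, above the last part. The deposited lists held 28 Pol II peaks inside Ldb3 in each replicate. At its start both replicates had 30 reads, or 19.5 and 10.9 RPM (reads scaled to the size of the library only).
The promoter of Ldb3 is shown because it was the only one of the 10 with a match to the CArG box, the site of serum response factor. The match is in capitals.
Ldb3 promoter, chr14:35401818-35402117, minus strand: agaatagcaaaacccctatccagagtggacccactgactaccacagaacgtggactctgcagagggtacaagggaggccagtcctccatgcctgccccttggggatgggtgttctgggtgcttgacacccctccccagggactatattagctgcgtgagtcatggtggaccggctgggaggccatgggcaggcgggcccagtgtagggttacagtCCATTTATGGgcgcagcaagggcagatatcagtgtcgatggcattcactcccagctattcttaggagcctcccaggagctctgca
The box began at position -35. Such a match was present in 1.44% of all promoters, and binding to it was not tested.

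Tcap (chr11:98245125-98246267, plus strand) encodes telethonin, and at 1143 bp it is the shortest of the genes. Few reads therefore stood behind its level, 17 and 24 in the Pol II libraries and 15 and 20 in the inputs. These gave 9.67 and 7.60 RPKM of Pol II against 0.597 and 0.722 RPKM of input, with a log2 ratio of 3.70 ± 0.39 (adjusted p = 3.21e-05). The standard error was the largest among the 10 genes. Pol II continued past the gene at 6.17 and 5.61 RPKM over 2 kb, where Pnmt begins 1497 bp from the end of Tcap. Pnmt encodes the enzyme that makes adrenaline.

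The myozenins (calsarcins) bind α-actinin and the phosphatase calcineurin. Myoz1 and Myoz3 are known from fast fibers and Myoz2 from slow fibers and the heart. Of the 3, Myoz2 (chr3:122709124-122737908, minus strand, 28785 bp) had the most Pol II, at 3.16 and 3.12 RPKM against 0.724 and 0.636 RPKM of input, a log2 ratio of 2.21 ± 0.11 (adjusted p = 2.95e-07). Myoz1 (chr14:21468324-21475762, minus strand, 7439 bp) had 1.75 and 1.90 RPKM against 0.759 and 0.599, a log2 ratio of 1.46 ± 0.23 (adjusted p = 0.000467). Over Myoz3 (chr18:60735970-60751442, minus strand, 15473 bp) there were 6 and 16 Pol II reads, or 0.252 and 0.374 RPKM, and input was at 0.438 and 0.424 RPKM. Both Pol II values of Myoz3 lay below both inputs, but the log2 ratio of -0.41 had a 95% interval from -1.07 to 0.24 and was not called (adjusted p = 0.241). The ratio of Myoz3 was 0.89 and called with the bin scaling (adjusted p = 0.023), and without Pol II replicate 2 it was called lower, at -0.66. The Pol II levels of the 3 myozenins did not overlap.

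Pol II was unevenly placed along Myoz2. It was at 6.59 and 5.84 RPKM in the first of 4 equal parts and at 1.44 and 1.51 RPKM in the last, where input was at 1.02 and 0.923 RPKM in the first and at 0.594 and 0.453 RPKM in the last. Pol II was thus 6.47 and 6.33 times input in the first part and 2.43 and 3.33 times in the last. The bin of 700 bp centred 850 bp after the start of Myoz2 held the most, 14.9 and 15 RPKM. A microRNA gene, AC121540.1, lies inside Myoz2. Around Myoz1 the highest Pol II was not in the gene but before it. Between 0.5 and 2.5 kb upstream of its start Pol II was at 22.1 and 28.2 RPKM, against 1.75 and 1.90 over the gene. This stretch borders Synpo2l, another Z-disc gene on the same strand, whose annotated end is 2406 bp before the start of Myoz1 and whose body carried 21.6 and 22.5 RPKM. The part of Synpo2l in the reads at the start of Myoz1 was not tested.

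The promoters of Myoz1 and Myoz2 are shown because they were the 2 of the 10 with a match to the MEF2 consensus. The match is in capitals, together with the E-box of Myoz2.
Myoz1 promoter, chr14:21475713-21476012, minus strand: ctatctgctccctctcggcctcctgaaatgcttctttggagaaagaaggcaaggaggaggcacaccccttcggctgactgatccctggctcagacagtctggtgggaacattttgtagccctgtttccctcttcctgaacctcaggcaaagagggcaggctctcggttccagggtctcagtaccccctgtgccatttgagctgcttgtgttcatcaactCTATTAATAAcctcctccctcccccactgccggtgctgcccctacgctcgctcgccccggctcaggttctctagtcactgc
Myoz2 promoter, chr3:122737859-122738158, minus strand: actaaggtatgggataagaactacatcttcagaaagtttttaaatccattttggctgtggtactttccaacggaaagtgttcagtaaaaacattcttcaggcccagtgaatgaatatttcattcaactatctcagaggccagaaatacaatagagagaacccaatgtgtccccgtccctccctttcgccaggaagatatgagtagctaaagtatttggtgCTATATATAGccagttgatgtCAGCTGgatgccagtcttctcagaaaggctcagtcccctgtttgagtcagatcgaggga
The MEF2 match began at position -31 in Myoz1 and at position -30 in Myoz2. Such matches were present in 2.98% of all promoters, and binding of MEF2 to them was not tested. At these starts, within 500 bp on each side, Myoz1 had 8 and 17 Pol II reads and Myoz2 had 9 and 16.

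Csrp3 had about as much Pol II as Myoz2, and Myot lay between Myoz1 and Myoz3. Csrp3 (chr7:56085777-56103400, minus strand, 17624 bp) encodes muscle LIM protein, which is held at the Z-disc and is also found in the nucleus. It had 3.32 and 2.98 RPKM of Pol II against 0.798 and 0.873 RPKM of input, a log2 ratio of 1.92 ± 0.13 (adjusted p = 1.68e-06). A second annotated start of Csrp3 lies 4379 bp inside the gene, and 4 and 8 Pol II reads were found there against 7 and 14 at the first. Myot (chr18:44493728-44515378, plus strand, 21651 bp) encodes myotilin, which binds α-actinin and filamin C. Its Pol II was at 1.08 and 0.836 RPKM (36 and 50 reads) against 0.540 and 0.526 RPKM of input. The libraries did not overlap, and the log2 ratio of 0.85 ± 0.18 was called (adjusted p = 0.00261). With 2 and 1.59 times input, Myot had the smallest called ratio of the 10 genes.

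At the starts, 8 of the 10 genes had more Pol II than input, where 47.2% of 18658 genes were called higher and 0.0697% lower. The lower calls, 13 genes, depended on the reads added and on single libraries, with 3317 when fewer reads were added and 694 and 167 without Pol II replicates 1 and 2. The log2 ratios of the 8 ran from 2.55 ± 0.42 for Csrp3 (adjusted p = 7.53e-09) to 5.60 ± 0.40 for Des (adjusted p = 2.39e-42). Des had 24 and 44 reads in the Pol II libraries and 3 and 16 in the inputs, so the inputs differed more from each other at this start than over the gene. Myot had 3 and 2 Pol II reads at its start and was not called, with a log2 ratio of 1.21 and an interval from -0.07 to 2.48 (adjusted p = 0.123). Myoz3 had 0 and 5 reads and was not called either (log2 ratio 0.33, interval -1.18 to 1.83, adjusted p = 0.801). A count of 0 in Pol II replicate 1 allows up to 1.95 RPM.

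The typical start also had more Pol II than input, since the median log2 ratio over all genes was 1.41, and 8 of the 10 Z-disc genes lay above it. The median of ratios takes its size factor only from windows with reads in all 4 libraries, so starts with a count of 0, as at Myoz3, had no part in it. With this size factor the median log2 ratio over all genes became -0.90, and the calls over all starts changed from 8800 higher and 13 lower to 1802 and 5985. Of the Z-disc genes 4 were still called higher. Those not called were Myoz1 (0.80), Myoz2 (0.39), Tcap (0.78) and Csrp3 (0.23), beside Myot. Myoz3 was then called lower (-1.99, adjusted p = 0.0239).

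**Figure D3:**
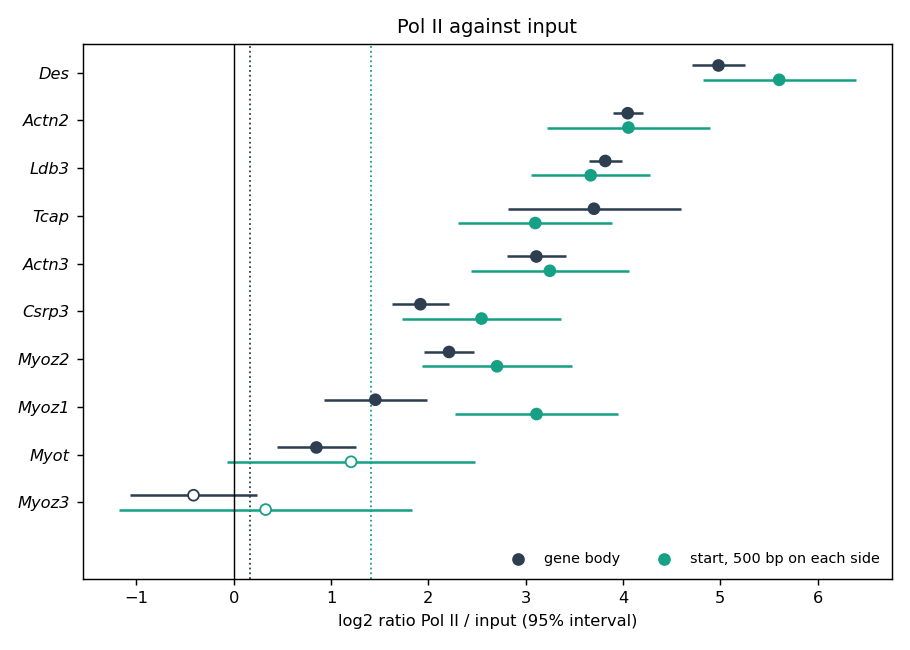
Pol II over input as a log2 ratio with its 95% interval over the gene body and within 500 bp of the start of the 10 genes. Filled points passed the test, open points did not, and dotted lines mark the median of all genes tested, 0.17 for bodies and 1.41 for starts. Intervals are wider at starts, where fewer reads were counted.

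Of the 1066 peaks common to both Sox6 replicates, 2 lay in or within 20 kb of a Z-disc gene, one in Actn2 and one in Myot. In all, 4.30% of the 22921 genes, whatever their length, had a common peak within that distance. The list of replicate 1 (2888 peaks) added a peak upstream of Myoz1 and one upstream of Myoz3, so that 4 of the 10 genes had a peak of that list, as did 9.64% of all genes. The list of replicate 2 (1734 peaks) held peaks at Actn2 and Myot only, with 6.66% of all genes having one. No peak of any list lay within 20 kb of Actn3, Myoz2, Ldb3, Tcap, Csrp3 or Des. Within 50 kb, a further common peak was found near Actn2, so that still 2 of the 10 genes had a common peak, as did 7.11% of all genes. Csrp3 had 2 peaks of the list of replicate 1 at that distance. With them 5 of the 10 genes had a peak of that list, as did 15.4% of all genes.

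The common peak of Actn2 lay in intron 1 (chr13:12430202-12430301), 2776 bp after the start and inside the stretch with the most Pol II. In a window of 450 bp around its centre there were 20 and 18 Sox6 reads, or 6.70 and 12.3 RPM, and 10 and 15 input reads, or 0.455 and 0.619 RPM. Over all common peaks the median was 5.02 and 6.81 RPM of Sox6. The Sox6 values describe the peak only, as the same reads had been used to call it. Here is the window of 300 bases around the centre of the peak, shown because it was the common peak with much Pol II among the 10 genes. It is read in the direction of Actn2, and capitals mark matches on either strand to Sox (ACAAAG or ACAATG), Tead (GGAATG) and Runx (CCACA) motifs.
Actn2 intron 1 peak, chr13:12430101-12430400, minus strand: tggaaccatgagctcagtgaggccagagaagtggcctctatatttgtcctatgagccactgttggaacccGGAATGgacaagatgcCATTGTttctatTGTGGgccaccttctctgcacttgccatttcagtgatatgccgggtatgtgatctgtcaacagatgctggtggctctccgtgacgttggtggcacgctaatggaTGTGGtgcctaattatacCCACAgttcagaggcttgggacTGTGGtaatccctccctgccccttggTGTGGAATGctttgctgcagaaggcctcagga
The window held 1 Sox match, 2 Tead matches and 5 Runx matches, of which the last Runx match overlaps a Tead match, and no E-box of the form CAGCTG or CAGGTG. Among windows of this length at all 1066 common peaks, 65.9% held a Sox match, 34.9% a Tead match, 80.4% a Runx match and 76.0% an E-box.

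Pol II, which had no part in calling Sox6 peaks, was high at this peak of Actn2, with 21 and 42 reads (13.6 and 15.2 RPM) against 10 and 15 of input. Its log2 ratio was 4.73 ± 0.41 (adjusted p = 5.91e-28), at 97.7% of all common peaks. Pol II was called higher at 58.4% of the common peaks and lower at 1.5%, with a median log2 ratio of 1.79.

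The common peak of Myot lay in intron 2 (chr18:44498722-44498881), 5073 bp after the start. It held 15 and 11 Sox6 reads (5.02 and 7.49 RPM) and 9 and 12 input reads (0.410 and 0.495 RPM), close to the median of the common peaks. In contrast to the Actn2 peak it had only 2 and 1 Pol II reads. Against input the Myot peak had a Pol II log2 ratio of 0.99, with an interval from -0.58 to 2.56 and was not called (adjusted p = 0.280). Of the 2 peaks, 1 was thus called for Pol II, and with 2 reads added in place of 0.5, or without Pol II replicate 2, Myot was called as well (1.64 and 1.78). The window of 300 bases at the Myot peak held 1 Sox match and 1 E-box.

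The peaks of a single replicate were tested with the reads of the other one, which had not been used to call that list, with an exact binomial test (two-sided) of Sox6 against input reads, adjusted over all peaks of the list. In all, 67% of the peaks of replicate 1 and 84.4% of those of replicate 2 passed. These shares include the sites of the 1066 common peaks, which had also been called from the reads used to test them. No share without these sites was counted. At the Z-disc genes, 5 of 6 passed, but the 6 tests cover 4 sites. The Actn2 and Myot peaks are in both lists, so each had also been called from the reads used to test it, and their values are a description. Only the peaks upstream of Myoz1 and Myoz3 were tested on reads in which no peak had been called. The Actn2 peak of replicate 1 had 17 Sox6 reads in replicate 2 against 13 of input (exact log2 ratio 4.42, adjusted p = 1.10e-12), and that of replicate 2 had 20 reads in replicate 1 against 12 (log2 3.59, adjusted exact p = 1.03e-10). For Myot the log2 ratios were 3.93 (adjusted exact p = 1.21e-07) and 3.68 (adjusted exact p = 5.04e-09). These p-values cover counting error only. When only the deposited peak interval was counted, 3 of 6 passed, and the shares of all peaks that passed were lower too, at 31.2% for the list of replicate 1 and 45.6% for that of replicate 2.

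The peak upstream of Myoz1 (chr14:21481912-21481971) lay 6179 bp before its start, in an intron of Synpo2l. In 450 bp around it there were 8 and 3 reads of Sox6, 14 and 15 of input, and 26 and 46 of Pol II. It was the 1 peak that did not pass in the other replicate (3 reads against 15, log2 1.90, adjusted exact p = 0.104), although it did with a window of 1000 bp (adjusted exact p = 0.0126). Its window is shown for comparison with that of Actn2, with E-boxes also in capitals.
Peak upstream of Myoz1, chr14:21481791-21482090, minus strand: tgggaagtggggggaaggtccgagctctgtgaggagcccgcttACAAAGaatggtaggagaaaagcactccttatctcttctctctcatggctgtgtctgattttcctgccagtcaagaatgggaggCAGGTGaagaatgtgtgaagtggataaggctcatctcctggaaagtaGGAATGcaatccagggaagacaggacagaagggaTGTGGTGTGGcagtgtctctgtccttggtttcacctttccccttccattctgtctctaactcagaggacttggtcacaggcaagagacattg
It held 1 Sox match, 1 E-box, 1 Tead match and 2 Runx matches.

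The peak upstream of Myoz3 (chr18:60765872-60765931) lay 14459 bp before its start inside Synpo, which encodes synaptopodin. It passed, with 5 Sox6 reads in replicate 2 against 6 of input (log2 3.80, adjusted exact p = 0.000558), and it had 10 reads in replicate 1. Its window held 1 Sox match, 2 E-boxes, 1 Tead match and 2 Runx matches. Pol II had 1 and 3 reads there.

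**Figure D4:**
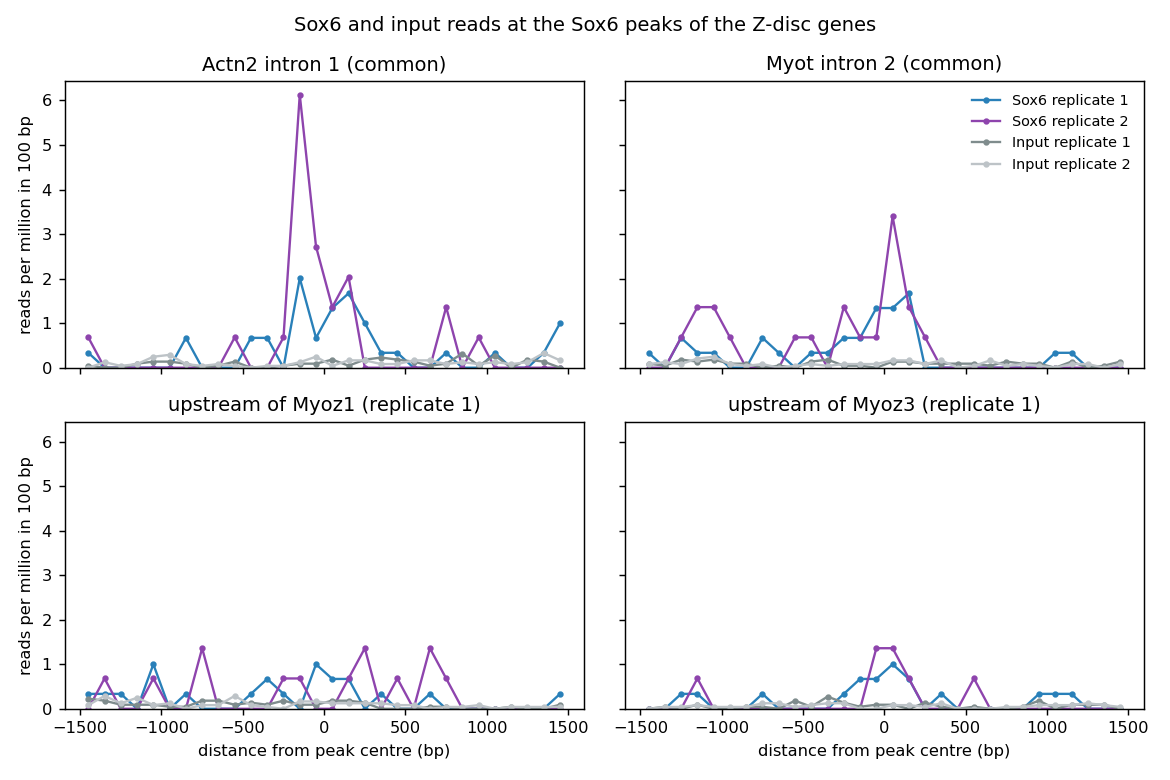
Sox6 and input RPM in bins of 100 bp around the centres of the 4 Sox6 peaks at Z-disc genes, by distance from the centre in bp, read in the direction of the gene. Both Sox6 replicates are high near the centres of the Actn2 and Myot peaks. At Actn2 the highest bin was at -150 bp in both (2.01 and 6.13 RPM), not at the centre itself. In 450 bp around the centre, Sox6 was lower upstream of Myoz3 (3.35 and 3.40 RPM) than at Actn2 (6.70 and 12.3) or Myot (5.02 and 7.49). Upstream of Myoz1 replicate 2 is no higher at the centre than around it. A Sox6 read is worth 0.335 RPM in replicate 1 and 0.681 RPM in replicate 2.

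At the starts of the genes Sox6 reads were few. Actn2 was the only one of the 10 called, where 2.21% of 18758 genes were called higher and 0.0% lower (0 genes, with 33 at an unadjusted p below 0.05, but 253 and 697 without Sox6 replicates 1 and 2). It had 5 and 4 Sox6 reads, or 1.67 and 2.72 RPM, against 9 and 13 input reads, or 0.410 and 0.536 RPM, and the log2 ratio was 2.28 ± 0.62 (adjusted p = 0.0201). This call of Actn2 rested on 9 Sox6 reads and was lost in limma without a trend (adjusted p = 0.266), in voom (0.231), with the median of ratios (0.442), with 250 bp (0.174) or 1000 bp (0.189) on each side, with 5′ ends moved by 75 bp (0.0511), and without either input library (0.991 in both), all adjusted p. Myoz1 also had 5 and 4 reads, with a log2 ratio of 1.80 that was not called (adjusted p = 0.0557). At the other 8 starts there were 0 to 5 Sox6 reads per library. The median log2 ratio over the 10 genes was 1.03 and over all genes 0.64, and 6 of the 10 lay above the latter. The start of Myot had 0 and 1 Sox6 reads, and a count of 0 in replicate 1 allows up to 1 RPM.

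Over gene bodies Sox6 was called higher than input at Actn2 and Ldb3, 2 of the 10 genes. In all, 5.4% of 20909 genes were called higher and 1.65% lower, and these shares moved widely with a library left out. Of 8 myotube markers 4 were called higher, with a median log2 ratio of 0.92, where that of the 10 genes was 0.55. Actn2 had 255 and 133 Sox6 reads, or 1.20 and 1.27 RPKM, against 0.704 and 0.715 RPKM of input, a log2 ratio of 0.80 ± 0.10 (adjusted p = 0.0137). Ldb3 had 230 and 138 reads, or 1.24 and 1.52 RPKM, against 0.699 and 0.727 RPKM of input, a log2 ratio of 0.95 ± 0.12 (adjusted p = 0.0137). The Sox6 libraries lay above both inputs in these and in 7 others of the 10 genes, all but Des. The share of all genes with such a separation was not counted, so this is no result about the 10. The log2 ratios of 10 of 10 lay above that of the median gene, but by only 0.05 for Csrp3 and 0.06 for Myoz2. Neither Actn2 nor Ldb3 was called by limma without a trend (adjusted p = 0.218 for both). That setting called 0 genes higher in all (3496 at an unadjusted p below 0.05), whereas limma with voom weights called 1468. Next by p were Actn3 (0.70, adjusted p = 0.0611) and Myot (0.60, adjusted p = 0.0926), which were not called. Both were called with the replicate number as a block. Tcap had the highest log2 ratio of the 10, 1.05, on 4 and 2 Sox6 reads, and was not called (adjusted p = 0.263).

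Actn2 and Myot differed in how much of this lay at the peak. Within 1 kb on each side of the Actn2 peak were 11.4% and 17.3% of the Sox6 reads of the gene, in 2.80% of its length. Without that stretch Actn2 still had 1.09 and 1.08 RPKM of Sox6 against 0.693 and 0.704 RPKM of input. At Myot, 48.9% and 51.7% of the Sox6 reads lay within 1 kb of the peak, in 9.24% of the length, and without them Sox6 was at 0.392 and 0.485 RPKM, below the inputs at 0.512 and 0.499. Input itself had 14% and 13.8% of its Myot reads there. Ldb3, with no peak within 20 kb, had its Sox6 reads in all 4 parts, between 50 and 67 in replicate 1 and between 26 and 49 in replicate 2.

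The scaling also moved Sox6, by 0.15 for the median gene with the bins and by -0.16 with the median of ratios over gene bodies. The calls over all bodies changed from 1130 higher and 344 lower to 2372 and 133 with the bins and to 356 and 486 with the median of ratios. Actn2 and Ldb3 were called higher in each.

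**Figure D5:**
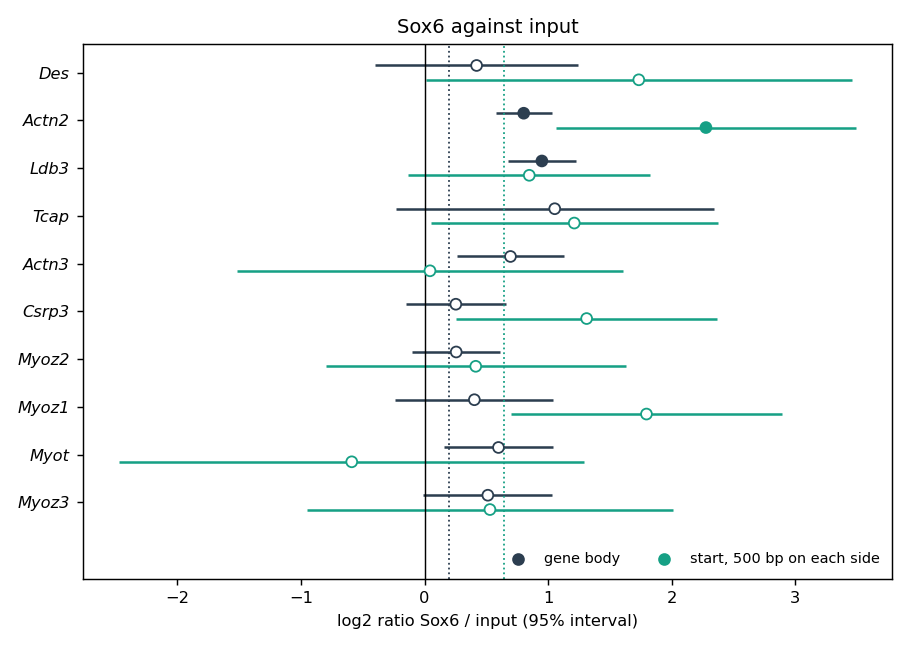
Log2 ratio of Sox6 to input with its 95% interval over the gene body and within 500 bp of the start of the 10 genes, in order of Pol II level. Filled points passed the test (Actn2 at both, Ldb3 over the body), and dotted lines mark the median of all genes tested, 0.20 for bodies and 0.64 for starts.

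Beyond the 10 genes, a list of 39 related genes was counted, which holds genes of other proteins found at the Z-disc and also 4 paralogs, Actn1, Actn4, Csrp1 and Csrp2, that act mainly outside the sarcomere. Over their bodies 31 had more Pol II than input and 3 had less, with a median log2 ratio of 2.59, where 38.8% of all genes were called higher and 24.3% lower and the median was 0.17. With the bin scaling these counts were 38 and 0, and with the median of ratios 30 and 5. The highest were Flnc (filamin C, 4.92), Ttn (titin, 4.91), Synpo2l (an actin-binding protein of the Z-disc, 4.80) and Itgb1bp2 (melusin, 4.37). The lowest were Nebl (nebulette, the cardiac relative of nebulin, -1.50) and Xirp2 (an actin-binding repeat protein, -0.74), and with the bin scaling Nebl was at -0.20 and no longer called while Xirp2 turned to 0.57. The third, Fhl1 (a LIM protein, -0.47), is named after its value was seen, and it too turned, to 0.83, with that scaling.

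Among the 39, the 4 paralogs were not alike. Actn1 and Actn4, the α-actinins of other cells, had log2 ratios of 2.03 and 3.09 over the body, both called (adjusted p = 7.40e-08 and 4.63e-09). Pol II was thus at 2.67 and 2.61 RPKM over Actn1 and at 6.75 and 6.58 over Actn4, the latter above both values of Actn3 and below both of Actn2. Csrp1 and Csrp2, relatives of Csrp3 in smooth muscle and other cells, had 0.28 (adjusted p = 0.105) and -0.04 (adjusted p = 0.894) and were not called, although both were with the bin scaling (1.59 and 1.27). Csrp3 at 3.32 and 2.98 RPKM was above both, at 0.687 and 0.709 for Csrp1 and 0.602 and 0.838 for Csrp2.

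Common Sox6 peaks lay in or within 20 kb of 6 of the 39 related genes, as of 4.30% of all genes. These were Mypn (myopalladin), Palld (palladin, with 2 peaks), Fhl2 (a LIM protein), Cryab (αB-crystallin) and the capping protein genes Capza2 and Capzb. Their log2 ratios of Pol II over the body were 1.38, 2.59, 0.96, 4.0, 1.20 and 1.88 in that order, all called. At their starts 4 of 38 related genes tested were called higher for Sox6, where 2.21% of all genes were, and over their bodies 10 of 39, where 5.4% were. No test of these shares was made, and the genes were not matched for length. A longer gene has more room for a peak and more reads. The 6 genes with a peak ran from 3876 bp for Cryab to 389424 bp for Palld.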

How the data were processed

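Per the labels and methods, the authors fixed chromatin with disuccinimidyl glutarate and formaldehyde, amplified it by 18 PCR cycles, selected 300 to 600 bp and aligned single-end reads with Bowtie 0.12.5 to NCBI Build 37, keeping unique matches. They called peaks with SISSRs against input. The deposited files hold read positions and peak positions, with no counts. The deposited Pol II peak lists also have an unnamed score, which was not used. Repeated positions (2.96% to 7.88% of reads) were kept.

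Reads were counted by their 5′ end over the longest GENCODE model of each gene with a RefSeq symbol or synonym, within 500 bp of starts, and in 450 bp at peaks, with annotation and genome sequence of the same build. Ratios to input were tested with limma 3.58.1 with a trend (R 4.3.3) on log2 RPM with 0.5 reads added, over genes with at least 10 reads in the 4 libraries, adjusted by Benjamini-Hochberg. An added read of 0.5 weighs more in the small immunoprecipitated libraries, so windows with few reads lean toward positive ratios. The tests were tried on simulated data first. Limma with voom weights was an alternative across genes. Single-replicate peaks were tested by an exact binomial test (scipy 1.17.1). Motifs were searched on both strands with Python 3.11.15, each overlapping match counted. MEF2 and CArG sites were matched to their consensus.

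The genes, lists and tests were chosen with earlier results of these data known. Named were the 10 genes, all Sox6 peaks within 20 kb of them and, of 39 related genes, the 4 highest and 2 lowest for Pol II, 4 paralogs and those with a common Sox6 peak. Alternatives were other scalings, added reads, filters, windows, limma settings, a replicate block, repeated positions counted once and each library left out.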

Additional observations from a re-analysis of the deposited data

How the results depend on the processing

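With 2 libraries a group and at most 2985437 reads in an immunoprecipitation, calls of Sox6 at starts rest on few reads, and an exact permutation test of a single value could not pass. A library left alone in its group was assumed to vary like the other group. Pol II over gene bodies was called higher at 9 of the 10 genes in every alternative but the bin scaling, with 10. Where a value was called in the main setting or the alternative, its sign changed in 2 cases, both of Myoz3. They were 0.89 over the body with the bin scaling and -1.99 at the start with the median of ratios. Among uncalled values the sign changed too. For Pol II this was 1 case over bodies and 4 at starts, and for Sox6 11 at starts and 1 over bodies. The cause of the changes below was not tested.

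Over bodies, 8098 genes were higher in Pol II and 13141 with the bin scaling, and 6922 to 9164 without a library. At starts, 8 Z-disc genes and 8800 of all genes were called, 4 and 1802 with the median of ratios, 15685 of all with 2 reads added and 2668 with a minimum of 50 reads (2884 genes tested), and 8 to 9 and 6704 to 10214 without a library.

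For Sox6 at starts, 1 Z-disc gene and 415 of all were called. These became 2 and 654 with the bin scaling, 0 and 33 with the median of ratios, 6 and 10387 with 2 reads added, 2 and 1461 with no filter, 0 and 37 with a minimum of 50 reads (only 1 Z-disc gene tested), 0 and 38 in limma without a trend, 0 and 75 with voom, 0 and 78 with 1000 bp on each side, 246 of all with 250 bp, and 0 Z-disc genes with 5′ ends moved by 75 bp. Without a library they ran from 0 to 6 and from 4 to 7258, with 6 and 7258 without Sox6 replicate 1, 2 and 1982 without Sox6 replicate 2, 0 and 4 without input replicate 1 and 0 and 27 without input replicate 2.

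For Sox6 over bodies, 2 and 1130 became 2372 of all with the bin scaling, 356 with the median of ratios, 2487 with 2 reads added, 570 with fewer reads added, and 0 and 0 in limma without a trend. Without a library they ran from 2 to 8 and from 162 to 7575, with 8 and 7575 without Sox6 replicate 1, 5 and 4599 without Sox6 replicate 2, 162 of all without input replicate 1 and 533 without input replicate 2.

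Lower calls over all genes moved too. Over bodies for Sox6, 344 became 2888 and 1980 without Sox6 replicates 1 and 2, 29 and 198 without input replicates 1 and 2, 1107 with the replicate block and 0 in limma without a trend. At starts for Pol II, 13 became 5985 with the median of ratios, 3317 with fewer reads added and 0 with 2 reads added. Over bodies for Pol II, 5072 became 431 with the bin scaling and 3223 and 3213 without input replicates 1 and 2. At common peaks, 16 became 7 without input replicate 2, 9 without Pol II replicate 2, 4 with repeated positions counted once, 7 in limma without a trend and 8 in 200 bp.

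At common peaks, Pol II was called at 1 of the 2 Z-disc peaks and at 623 in all, at 2 and 951 with 2 reads added, and at 1 to 2 and 302 to 617 without a library, with 302 and 325 without input replicates 1 and 2. Of single-replicate peaks, 5 of 6 passed, 4 of them at Actn2 and Myot and called in both replicates. With the deposited interval 3 of 6 passed, where 31.2% and 45.6% of all peaks of replicates 1 and 2 did. Within 50 kb 8 of 11 passed, where 67% and 84.4% of all did. Most of these 8 were also called from the reads that tested them, at Actn2, Myot and the further common peak near Actn2. The passes at Myoz3 and at a peak near Actn2 called in replicate 1 alone were not. The Myoz1 and Csrp3 peaks did not pass. The shares of all peaks include those called in both replicates.

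Libraries of the same number deviated together with a correlation of only -0.014 to 0.053. Counting error also lowers this value, so it cannot show whether the numbers paired the libraries. For peak calling the methods name an input data file of each experiment. With the replicate number as a block, Sox6 was called at 2 starts, adding Myoz1, with 474 of all starts, and at 4 bodies, adding Actn3 and Myot, with 2907 of all bodies. Pol II calls at the Z-disc genes were as many as without the block.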
